A study of Drosophila melanogaster with 3 samples.

Results

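The mitochondrial ribosomal protein genes were the 73 protein-coding genes whose symbols begin with mRpL or mRpS, of 13968 protein-coding genes on the main chromosomes of Drosophila melanogaster. The rule uses the symbol alone and no measured value. By symbol, 47 of them encode proteins of the large subunit of the mitochondrial ribosome and 26 encode proteins of the small subunit. Genes of that ribosome with other names, such as tko and bonsai, fall outside the rule and were counted with the related genes. DNA recovery was mapped by chromatin immunoprecipitation and sequencing (ChIP-seq), which sequences the DNA bound to a protein that an antibody pulls down. The animals were whole prepupae of mixed sex, synchronised at the white prepupa stage, when the larva has just formed its puparium, and their age is labelled unknown. They belonged to a transgenic line that stably expresses CG8632, now named ZnT49B, with green fluorescent protein (eGFP) fused to its C-terminus, and the antibody was directed against GFP. By its name ZnT49B is a member of the ZnT family of zinc transporters. There were 3 biological replicates of this 1 group, which leaves no contrast of conditions, and control samples were not analysed here. The labels do not say what drives the transgene, how many animals were pooled or whether the replicates were separate collections. Because whole animals were used, the calls are averages over all tissues.

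Mitochondria carry their own small genome and translate it on ribosomes of their own. The RNA of these ribosomes is encoded in the mitochondrial genome, while in animals their proteins are encoded in the nucleus, made in the cytoplasm and imported. The large subunit joins amino acids and the small subunit reads the messenger RNA, and together they make core subunits of the respiratory chain. Promoters of housekeeping genes of this kind can lie head to head in Drosophila, where a short interval serves a pair of genes transcribed in opposite directions.

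Example stretches of genome from between head-to-head starts are printed here, taken from the Release 6 genome (dm6). Each is on the strand of the mitochondrial ribosomal protein gene, 5′ to 3′. A peak is an interval that the authors called, and its summit is the base within it that they marked as the highest point. Capitals mark the 21 bases centred on the summit of a peak in the reproducible set described below, and a sequence with no capitals holds no such summit. The first 3 are the whole intervals between the starts of a head-to-head pair with such a peak, so each begins beside the neighbour's start and ends beside that of the named gene. They are mRpL24 with betaggt-I (chr2L:4945362-4945578, minus strand), mRpS2 with Mon1 (chr2L:4850420-4850640, minus strand) and mRpS10 with Art3 (chr3R:15229409-15229664, plus strand).
mRpL24: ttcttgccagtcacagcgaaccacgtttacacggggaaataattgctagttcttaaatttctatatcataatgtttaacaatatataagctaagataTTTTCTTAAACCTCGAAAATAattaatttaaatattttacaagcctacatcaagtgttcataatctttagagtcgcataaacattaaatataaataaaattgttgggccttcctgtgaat
mRpS2: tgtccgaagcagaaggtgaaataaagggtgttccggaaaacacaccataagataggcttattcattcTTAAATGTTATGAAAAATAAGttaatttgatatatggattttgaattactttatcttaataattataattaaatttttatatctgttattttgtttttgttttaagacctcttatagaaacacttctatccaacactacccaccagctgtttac
mRpS10: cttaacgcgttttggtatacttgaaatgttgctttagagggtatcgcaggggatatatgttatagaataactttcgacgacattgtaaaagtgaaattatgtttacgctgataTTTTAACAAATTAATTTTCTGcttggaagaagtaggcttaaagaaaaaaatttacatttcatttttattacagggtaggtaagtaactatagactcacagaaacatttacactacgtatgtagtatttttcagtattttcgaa
The next 3 are 101-base windows centred on the summits upstream of mRpS23 (chr2L:13835413-13835513, minus strand), mRpL20 (chr3L:13018113-13018213, minus strand) and mRpS6 (chr3L:4364385-4364485, plus strand), where the interval between the starts is longer.
mRpS23: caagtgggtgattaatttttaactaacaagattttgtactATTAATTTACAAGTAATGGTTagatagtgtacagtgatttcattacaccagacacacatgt
mRpL20: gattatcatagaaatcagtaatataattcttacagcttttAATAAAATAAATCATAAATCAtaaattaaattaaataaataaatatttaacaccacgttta
mRpS6: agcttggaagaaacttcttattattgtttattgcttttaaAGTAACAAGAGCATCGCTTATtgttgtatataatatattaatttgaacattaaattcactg
The last 4 are whole intervals between head-to-head starts without a reproducible peak, at mRpL32 with qless (chr3R:31252609-31252871, plus strand), mRpL55 with ATPsynD (chr3R:19094906-19094999, minus strand), mRpL28 with its neighbour (chr2L:4973922-4973975, plus strand) and mRpL46 with CG2021 (chr3L:1777412-1777438, plus strand).
mRpL32: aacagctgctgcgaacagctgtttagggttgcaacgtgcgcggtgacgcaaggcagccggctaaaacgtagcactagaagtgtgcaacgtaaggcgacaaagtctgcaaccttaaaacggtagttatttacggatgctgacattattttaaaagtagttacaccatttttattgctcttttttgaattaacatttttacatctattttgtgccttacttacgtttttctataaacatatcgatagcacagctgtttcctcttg
mRpL55: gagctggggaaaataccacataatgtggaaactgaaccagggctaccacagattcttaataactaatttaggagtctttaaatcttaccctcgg
mRpL28: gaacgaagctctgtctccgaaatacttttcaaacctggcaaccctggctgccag
mRpL46: cgataacgataactgtgccgcaaatca
The 3 intervals with a peak had a GC content of 28.6% at mRpL24, 28.1% at mRpS2 and 30.1% at mRpS10. The 4 without had 39.9% at mRpL32, 40.4% at mRpL55, 51.9% at mRpL28 and 44.4% at mRpL46. The 3 summit windows had 29.7% at mRpS23, 15.8% at mRpL20 and 24.8% at mRpS6. These sequences were picked to show the range of interval lengths and support no count, and no contrast in GC content is read from them. The 3 whole intervals with a peak have 217 to 256 bases and the 4 without have 27 to 263. Over the promoters of all genes of the set, described below, median GC content was 32.8% with a peak and 35.7% without.

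Each replicate came with a relaxed list of calls, which includes background on purpose, and the series with a list called on the pooled replicates and a set of 6469 peaks that passed an irreproducible discovery rate (IDR) threshold, called IDR peaks here. The lists held 30000, 29322 and 30000 calls for replicates 1, 2 and 3, with median signals of 20.0, 14.9 and 20.6. Signal is the value the authors' caller gave each interval. Its scaling between libraries is unknown, so differences in scale may enter the SD of a gene over replicates, and a rank, with 1 as the strongest call of a list, is given beside it. All 6469 IDR peaks were the 6469 strongest calls of the pooled list. A call in a replicate was therefore named strong when it was among that replicate's own strongest 6469. A gene was counted as having a peak when any of its annotated transcripts started no more than 500 bp from a summit, which assigns a summit between 2 starts to both genes.

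An IDR peak lay at a start of 18 of the 73 mitochondrial ribosomal protein genes, or 24.7% (95% Wilson interval 16.2 to 35.6%), beside 17.0% of all protein-coding genes. The interval, which covers counting error only, contains the value for all genes. The order turned round when a summit was counted only for the gene whose start is nearest to it, with 5 of 73, or 6.85% (2.96 to 15.1%), beside 13.2% of all protein-coding genes. Strong calls lay at 22, 20 and 20 of the 73 in replicates 1, 2 and 3, or 30.1%, 27.4% and 27.4% (28.3% ± 1.58, SD, n = 3), beside 17.3%, 17.3% and 18.3% of all protein-coding genes. The share of the mitochondrial ribosomal protein genes was above that of all genes in each replicate. Calls of any rank lay at 42, 31 and 32 of the 73, or 57.5%, 42.5% and 43.8%, beside 42.2%, 35.8% and 40.7% of all protein-coding genes. At this looser level the shares lay closer together in replicate 3 than in replicate 1. Peaks were found at genes of both subunits, at 10 of 47 large subunit genes (21.3%, Wilson interval 11.99 to 34.9%) and 8 of 26 small subunit genes (30.8%, 16.5 to 49.99%), and the 2 intervals overlap.

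The strength of these peaks spread over nearly the whole IDR set. Their median rank was 2757 and their ranks ran from 8 to 5674, beside a median of 2463 over the 2373 protein-coding genes with an IDR peak. Among the 100 strongest IDR peaks, 4 lay at mitochondrial ribosomal protein genes, mRpS23, mRpL41, mRpS10 and mRpL23. That is 4 of 73 genes, beside 0.594% of all protein-coding genes, and each of the 4 also ranked within the first 100 calls of every replicate. A further 4 genes ranked between 254 and 1329, and the other 10 ranked beyond 2000. The SD over replicates was 16.4% of the mean signal at the median gene, with a range of 5.41% to 30.9% over the 17 genes called in all 3 replicates. The order of these 17 genes by signal was close between replicates, with Spearman's rho of 0.902, 0.917 and 0.895 for replicates 1 and 2, 1 and 3, and 2 and 3, a description over genes that were all chosen for having a peak.

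**Figure D1:**
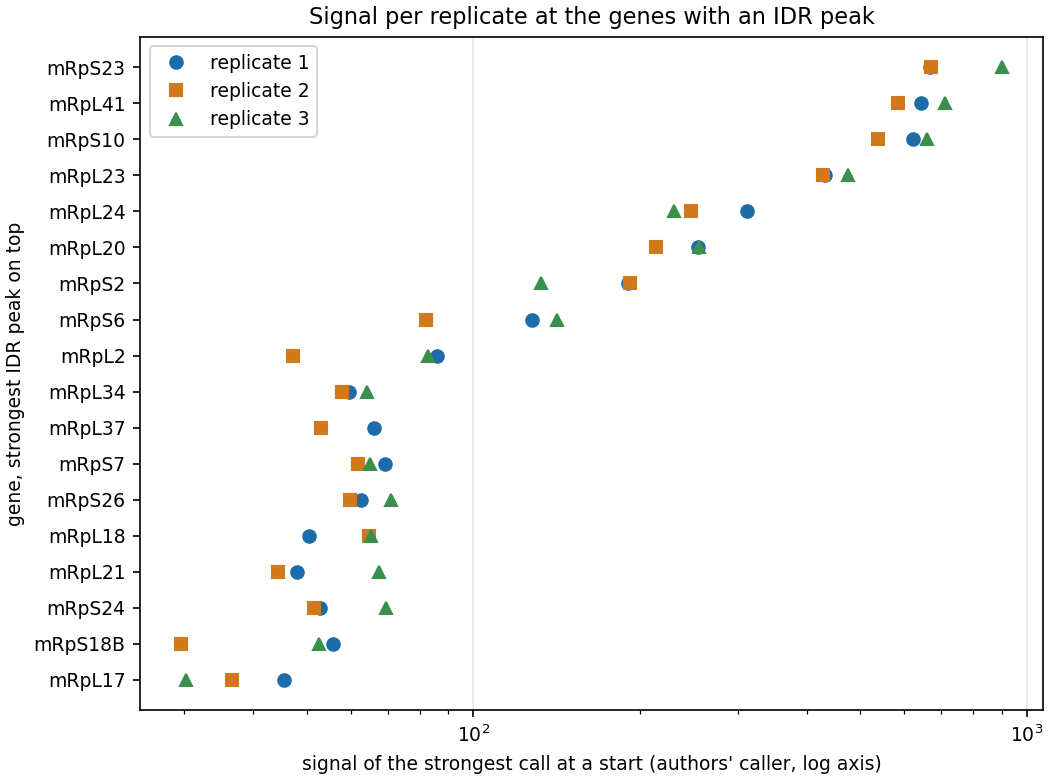
Signal of the strongest call within 500 bp of a start (x axis, authors' caller units, log scale) in replicates 1, 2 and 3 for each of the 18 genes with an IDR peak, listed by the rank of that peak. The 4 genes on top lie at a signal of 428 or more in every replicate, the 10 below mRpS6 at 85.9 or less, and mRpL37 has no point for replicate 3.

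Of the small subunit genes, mRpS23 had the strongest peak (FBgn0260407, peak chr2L:13835289-13835639, IDR rank 8, pooled signal 2235). Its signal was 667, 671 and 902 in replicates 1, 2 and 3 (747 ± 134, SD, n = 3), at ranks 23, 7 and 4. Replicate 3 was the high value, and the lowest was still far above the median call of its list. The summit lay 391 bp upstream of the mRpS23 start and 101 bp from that of CenG1A, an Arf GTPase-activating protein transcribed the other way. At mRpS10, whose bacterial counterpart sits in the head of the small subunit, the peak (FBgn0038307, chr3R:15229346-15229714) ranked 24 with a pooled signal of 1816. The signal was 623, 537 and 659 (606 ± 62.5), and the summit in the printed interval lay 133 bp from mRpS10 and 124 bp from Art3, an arginine methyltransferase. The replicates lay close together at this gene and all ranked it between 20 and 29.

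A middle level was seen at mRpS2 and mRpS6. At mRpS2, a homologue of the bacterial S2 protein, the peak (FBgn0031639, chr2L:4850470-4850685) ranked 717 with a pooled signal of 508, and the signal was 190.0, 192 and 133 (171 ± 33.7). Replicate 3 was the low value here, unlike at mRpS23. The summit lay 144 bp from mRpS2 and 78 bp from Mon1, which acts in the activation of Rab7 on endosomes. At mRpS6 (FBgn0035534, chr3L:4364357-4364497) the peak ranked 1329 with a pooled signal of 355, and the signal was 127, 82.0 and 141 (117 ± 31.1). Replicate 2 was low, and this gene was among the 4 with a head-to-head neighbour whose summit lay nearer to their own start, at 115 bp, than to that of the neighbour, here Cip4, a membrane-bending F-BAR protein.

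The other 4 small subunit genes had weaker peaks. At mRpS7 (FBgn0032236, chr2L:10386216-10386651), which pairs with the mitotic kinase gene Cdk1, the signal was 69.2, 62.0 and 65.0 (65.4 ± 3.61). At mRpS26 (FBgn0036774, chr3L:18106246-18106681), which pairs with CG13698, it was 62.6, 59.8 and 70.8 (64.4 ± 5.74). These 2 genes had IDR ranks of 3221 and 3247 and varied little among replicates. At mRpS24 (FBgn0039159, chr3R:24163604-24164039), paired with the Wnt pathway regulator Apc2, the signal was 52.8, 51.5 and 69.4 (57.9 ± 9.98). At mRpS18B (FBgn0032849, chr2L:20097133-20097568), paired with Kua, it was 55.7, 29.7 and 52.5 (46.0 ± 14.2). Replicate 2 was low at mRpS18B, yet all 3 calls there were strong in their own lists.

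Of the large subunit genes, mRpL41 had the strongest peak (FBgn0034001, chr2R:15217582-15217933, IDR rank 17, pooled signal 1920). Its signal was 644, 584 and 710 in replicates 1, 2 and 3 (646 ± 63.1, SD, n = 3), at ranks 28, 15 and 14. It was the 1 gene with a peak that had no other gene's start within 500 bp, and its summit lay 134 bp upstream of its start in intergenic sequence. At mRpL23, whose bacterial counterpart lies beside the exit of the peptide tunnel, the peak (FBgn0035335, chr3L:2373446-2373785) ranked 53 with a pooled signal of 1342. The signal was 432, 428 and 474 (445 ± 25.5). Its summit lay in the 5′ UTR of mRpL23, 67 bp downstream of the nearest annotated start, and was the 1 summit of the 18 on that side. Its neighbour CG9004 starts 24 bp away from the outermost mRpL23 start.

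At mRpL24, also a neighbour of the tunnel exit in bacteria, the peak (FBgn0031651, chr2L:4945346-4945614) ranked 254 with a pooled signal of 794. The signal was 312, 247 and 230.1 (263 ± 43.0), and the summit in the printed interval lay 110 bp from mRpL24 and 108 bp from betaggt-I, a subunit of a protein prenylation enzyme. The summit was thus nearly midway between the starts. At mRpL20 (FBgn0036335, chr3L:13018003-13018291) the peak ranked 321 with a pooled signal of 721, and the signal was 254, 213 and 256 (241 ± 24.1). Its summit lay 296 bp upstream of mRpL20 and 103 bp from Icmt, which encodes a carboxyl methyltransferase of prenylated proteins. At mRpL2, a homologue of a protein of the bacterial peptidyl transferase centre, the peak (FBgn0036135, chr3L:11120250-11120685) ranked 2436, and the signal was 85.9, 47.2 and 82.9 (72.0 ± 21.5). This summit lay 379 bp upstream of mRpL2, within an intron of the forkhead gene FoxK. It lay beyond the FoxK start that is 64 bp from mRpL2, and 57 bp from another annotated start of FoxK.

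The remaining 5 large subunit genes lay in the weaker part of the set. The signal was 59.7, 57.8 and 64.2 (60.5 ± 3.27) at mRpL34 (FBgn0083983), which pairs with the dystroglycan gene Dg. It was 50.3, 64.7 and 65.3 (60.1 ± 8.47) at mRpL18 (FBgn0026741), where the summit lay in the 5′ UTR of Taz, the tafazzin gene of cardiolipin remodelling. It was 48.0, 44.3 and 67.5 (53.2 ± 12.5) at mRpL21 (FBgn0036853), which pairs with rept, the reptin ATPase. These 3 genes were strong in every replicate. At mRpL17 (FBgn0035122, chr3L:264314-264749), which pairs with Tudor-SN, the signal was 45.4, 36.6 and 30.2 (37.4 ± 7.62), and the call ranked 9440 in replicate 3, outside the strong calls. At mRpL37 (FBgn0261380) it was 66.0 and 53.1 in replicates 1 and 2. Replicate 3 had no call there, and its nearest call lay 8760 bp from the IDR summit. For mRpL37 only replicates 1 and 2 thus list a call. A missing call does not show that replicate 3 had no signal there, and the pooled signal was 195. Strong calls in all 3 replicates were found at 16 of the 18 genes.

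Over the 17 genes called in every replicate, replicate 3 gave the highest signal at 11 and replicate 1 at 5, and replicate 2 gave the lowest at 12. Replicate 2 also had the lowest median signal over all its calls, and the part of library scale in these differences was not tested.

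Head-to-head neighbours were frequent in this gene set. A neighbour was counted when a start on the opposite strand lay between 100 bp downstream and 500 bp upstream of any annotated start. The smallest such distance was kept, and a gene with several starts had more places to qualify. This held for 53 of the 73 genes (72.6%), beside 29.9% of all protein-coding genes, and all 53 neighbours were protein-coding. The shares of both subunits were alike, with 72.3% of the large and 73.1% of the small subunit genes having such a neighbour. Among the 53 genes with a neighbour, 17 had an IDR peak, or 32.1% (Wilson interval 21.1 to 45.5%), beside 28.2% of all protein-coding genes with a neighbour. Among the 20 without, only mRpL41 had one, or 5% (0.888 to 23.6%), beside 12.2% of such genes in the genome. Within each class the interval contained the value for all genes of that class. Strong calls in replicates 1, 2 and 3 lay at 37.7%, 32.1% and 35.8% of the 53 genes, beside 29.9%, 30.2% and 29.1% of all protein-coding genes with a neighbour. The replicate shares of the 53 genes all lay above those of the genome, by less than the width of the counting interval. Of the 20 genes without a neighbour, 2, 3 and 1 had a strong call in replicates 1, 2 and 3, beside 11.9%, 11.8% and 13.7% of all protein-coding genes without one. In replicate 2 those 3 of 20 lay above the share of the genome, and in replicates 1 and 3 the count lay below it.

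**Figure D2:**
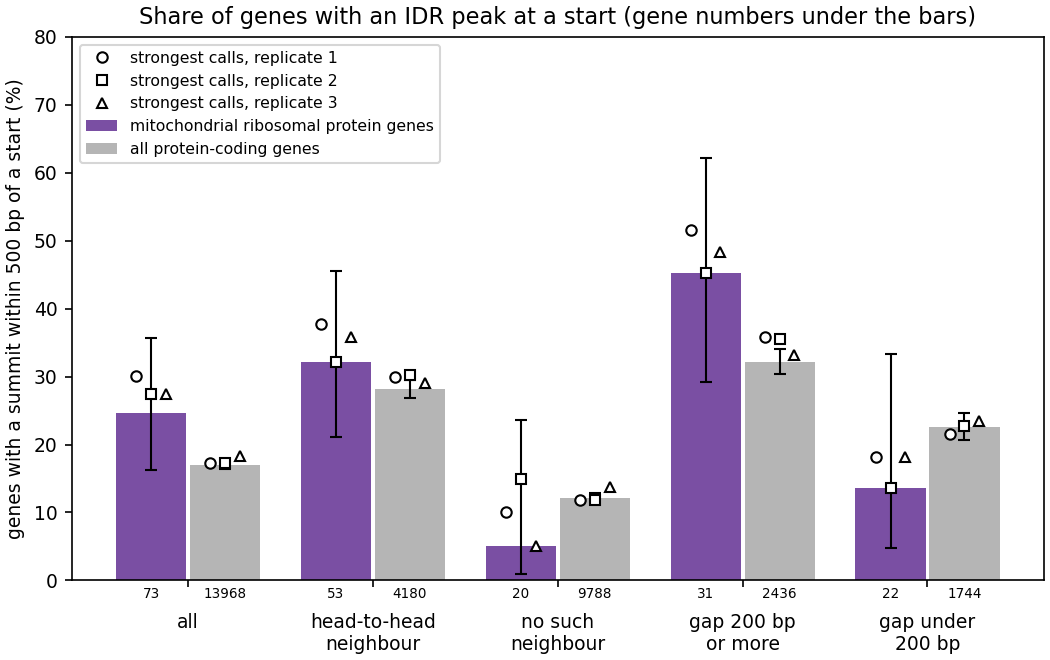
Share of mitochondrial ribosomal protein genes (purple) and of all protein-coding genes (grey) with an IDR peak within 500 bp of a start, in percent, over all genes and by the presence and length of a head-to-head gap, with 95% Wilson intervals as bars and the shares with a strong call in each replicate as open symbols. The purple bar stands at 45.2% for gaps of 200 bp or more and at 13.6% for shorter gaps, and the intervals of the purple bars contain the grey values in every class.

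The interval between the starts, called the gap, was longer at the median gene with a peak than at the median gene without. The gap had a median of 328 bp (20 to 492 bp) at the 17 genes with a peak and of 181 bp (21 to 499 bp) at the 36 genes without. Over all protein-coding genes with a neighbour these medians were 259 bp with a peak and 228 bp without. Divided at 200 bp, a limit chosen after the gaps had been seen, 14 of 31 genes with the longer gap had a peak, or 45.2% (29.2 to 62.2%), beside 32.2% of all protein-coding genes with such a gap. Of 22 genes with the shorter gap, 3 had a peak, or 13.6% (4.75 to 33.3%), beside 22.6%. These 3 were mRpL18, mRpL2 and mRpL23, with gaps of 20, 64 and 24 bp. The summits of all 3 lay outside the interval between the starts, whereas those of the other 14 lay within it. So short an interval leaves little room for a summit, and the part of gap length in this contrast was not tested. The contrast was not counted over all protein-coding genes. Divided at 300 bp instead, 9 of 20 genes with the longer gap had a peak, or 45% (25.8 to 65.8%), beside 32.8% of all protein-coding genes with such a gap, and 8 of 33 with the shorter gap, or 24.2% (12.8 to 41.0%), beside 26.0%. The intervals of the 2 gap classes overlap at either limit.

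**Figure D3:**
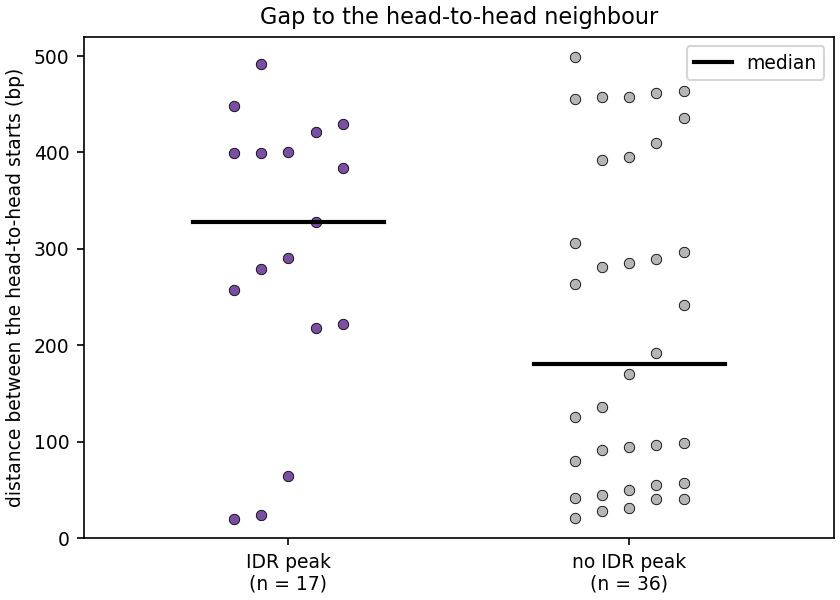
Distance in bp between the head-to-head starts for the 17 genes with an IDR peak and the 36 without, each point 1 gene and the line the median (328 bp with a peak, 181 bp without). Only 3 genes with a peak have a gap under 200 bp, against 19 of the genes without.

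Summits lay upstream of 17 of the 18 genes, at a median of 151 bp from the nearest start of the gene, beside 156 bp upstream at all protein-coding genes with a peak. By the annotation, 15 summits were intergenic, 2 were in a 5′ UTR and 1 was in an intron, and none lay in a coding exon. These counts and the 17 of 18 upstream have no share over all genes beside them. They describe the peaks and are not read as a result about this set. Of the 17 genes with a neighbour, all shared the peak with that neighbour, whose start also lay within 500 bp. For the 14 with a summit between the starts this follows from the definition of a neighbour. The sharing was not counted over all genes with a neighbour. The summit was nearer to the neighbour in 13 pairs, and nearer to the mitochondrial ribosomal protein gene in 4, mRpL23, mRpS18B, mRpS26 and mRpS6. With mRpL41, 5 of the 73 genes were thus the gene nearest to an IDR summit, the count set beside all genes above. Among genes with a neighbour, 4 of 53, or 7.55% (2.97 to 17.9%), were the nearest, beside 17.0% of all protein-coding genes with a neighbour. The median distance of a summit from the neighbour's start was 124 bp. To which gene of a pair a peak belongs cannot be told apart from these files. Replicate summits fell close to the IDR summit, the farthest of the 3 lying 27 bp away at the median gene and 173 bp away at mRpL17.

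**Figure D4:**
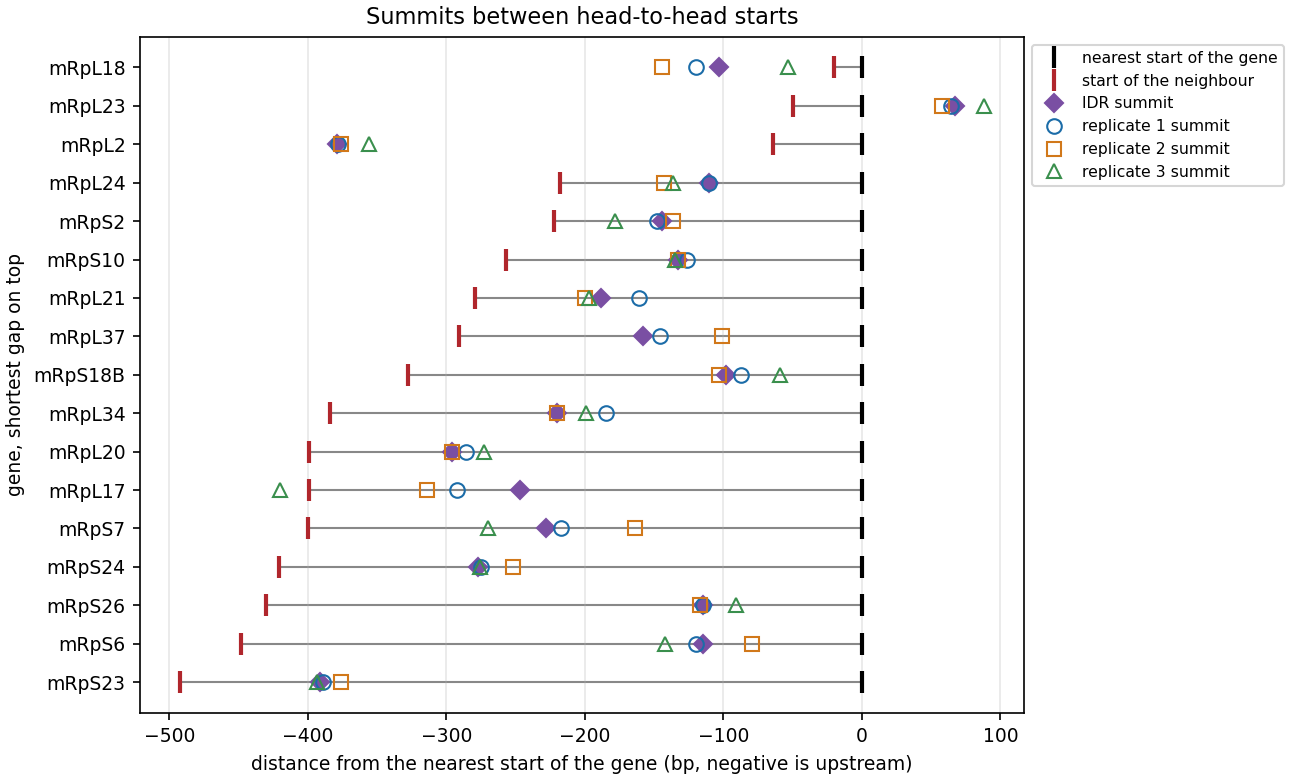
Position of the IDR summit and of the replicate summits, in bp from the nearest start of the mitochondrial ribosomal protein gene (black bar, transcription to the right), at the 17 genes with a head-to-head neighbour (red bar), shortest gap on top. In 14 pairs the IDR summit lies between the bars, and at mRpL18, mRpL23 and mRpL2 it lies outside them. The red bar is the neighbour's start closest to the gene, and at mRpL2 another FoxK start, not drawn, lies 57 bp from the summit.

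The sequence under these summits was rich in A and T. In windows of 101 bp centred on the summit, GC content had a median of 24.8% over the 18 genes (15.8% at mRpL20 to 42.6% at mRpL18), beside 30.7% over all IDR peaks, and 16 of the 18 lay at or below that value. In promoters, taken as 250 bp before to 50 bp after the outermost start, the median GC content was 32.8% at the 18 genes with a peak and 35.7% at the 55 without, beside 38% over all protein-coding genes and 36.7% over those with a neighbour.

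Promoters were searched on both strands for 5 short words. The DRE core TATCGATA, the site of the housekeeping promoter factor Dref, was found in 15 of 73 promoters (20.5%), beside 9.36% of all protein-coding promoters and 16.7% of those with a head-to-head neighbour. It was in 4 of 18 promoters with a peak (22.2%) and in 11 of 55 without (20.0%). The 4 were those of mRpL17, mRpL20, mRpS18B and mRpS23, where the copy nearest to each start lay within 7 bp of it and between 97 and 385 bp from the summit. A second copy at mRpS23 lay 185 bp from the summit. The core of Ohler motif 1, searched as GGTCACAC, was in none of the 18 promoters with a peak and in 8 of the 55 without (14.5%), beside 7.69% of all promoters and 13.8% of those with a neighbour. In wider promoters, from 500 bp before to 100 bp after the start, this split went away, with 3 of 18 (16.7%) at genes with a peak and 11 of 55 (20.0%) at genes without. The E-box CACGTG was in 5 of 73 promoters (6.85%, beside 4.20%), the GAGA word GAGAGAG in 1 (1.37%, beside 5.86%) and the GATA word GATAAG in 14 (19.2%, beside 18.9%). In the wider promoters the E-box was in 4 of 18 with a peak (22.2%) and 6 of 55 without (10.9%), beside 7.51% of all promoters. The GATA word was in 3 of 18 (16.7%) and 18 of 55 (32.7%), beside 29.6%. For both words the Wilson intervals with and without a peak overlap. The DRE and GATA words can overlap in their shared letters GATA.

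In the 101-bp summit windows of the 18 genes, the DRE core, the motif 1 core and the E-box did not occur, beside 0.557%, 0.417% and 0.587% of all IDR summit windows. The GAGA word occurred at mRpL2 and the GATA word at mRpL41, beside 1.53% and 5.04% of all windows. With 18 windows, words as rare as these would be met seldom, so their absence says only that the letters were not there.

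The 55 genes without an IDR peak differed in what the replicate lists held. The counts in this paragraph have no share over all protein-coding genes beside them. They list the genes and are not read as a result about this set. A call lay at the start in all 3 replicates for 7 of them, mRpL11, mRpL53, mRpL54, mRpS22, mRpS25, mRpS29 and mRpS5. A call in 2 replicates was found for 10, mRpL19, mRpL22, mRpL3, mRpL32, mRpL33, mRpL36, mRpL39, mRpL44, mRpL51 and mRpS16. A call in 1 replicate was found for 11, mRpL10, mRpL13, mRpL27, mRpL35, mRpL40, mRpL50, mRpS14, mRpS17, mRpS18A, mRpS21 and mRpS31. At 9 of these 28 genes the call was strong in at least 1 replicate, and at 1 of them, mRpS22, it was strong in 2. The lists stop at 30000 calls or fewer, so a weaker signal would not be listed. No call of any rank lay at the remaining 27, which were mRpL1, mRpL4, mRpL9, mRpL12, mRpL14, mRpL15, mRpL16, mRpL28, mRpL30, mRpL38, mRpL42, mRpL43, mRpL45, mRpL46, mRpL47, mRpL48, mRpL49, mRpL52, mRpL55, mRpS9, mRpS11, mRpS18C, mRpS28, mRpS30, mRpS33, mRpS34 and mRpS35. Among these is mRpL12, a protein of the ribosomal stalk that in bacteria contacts translation factors.

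Several genes lay just outside the IDR set in the pooled list. The weakest peak inside it, at mRpL17, had a pooled signal of 119 and rank 5674. The nearest outside was mRpL54 at rank 6504, with a pooled signal of 104 and signals of 40.3, 12.03 and 50.1 in replicates 1, 2 and 3 (34.2 ± 19.8). Replicate 2 was far below the others at mRpL54. Then came mRpS29, the fly counterpart of the GTP-binding protein DAP3, at rank 6693 with signals of 38.8, 23.0 and 39.1 (33.7 ± 9.26). It was followed by mRpS22 at rank 6773 with 53.6, 20.9 and 43.5 (39.3 ± 16.8), and by mRpL11, whose bacterial counterpart forms the base of the stalk, at rank 6963 with 33.6, 25.1 and 49.4 (36.0 ± 12.3). In replicate 1 these 4 genes lay on either side of mRpL17. In replicate 2 all 4 lay below every gene with a peak, and in replicate 3 all 4 lay above mRpL17. Of the 55 genes, 14 were in the pooled list at some rank, a count with no share over all genes beside it. The median distance from the 55 genes to the nearest IDR summit was 8667 bp, beside 9898 bp for all protein-coding genes without a peak. For 2 of the 55, mRpL33 and mRpS31, that summit lay over 500 but at most 1000 bp away. The same held for 512 of 11572 protein-coding genes without a peak.

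By chromosome, none of the 11 genes on the X had an IDR peak (Wilson interval up to 25.9%), beside 17.9% of all protein-coding genes of the X. None of the 11 had a strong call in any replicate, and 5, 2 and 3 of them had a call of any rank in replicates 1, 2 and 3. A peak lay at 5 of 12 genes on 2L (41.7%, beside 16.9% of all protein-coding genes there), at 3 of 12 on 2R (25%, beside 15.5%), at 7 of 17 on 3L (41.2%, beside 18.6%) and at 3 of 21 on 3R (14.3%, beside 16.7%). The Wilson intervals for the X, 2R (8.89 to 53.2%) and 3R (4.98 to 34.6%) contain the share of all genes there. Those for 2L (19.3 to 68.0%) and 3L (21.6 to 64.0%) lie above it. A head-to-head neighbour was present at 9 of the 12 genes on 2L and at 12 of the 17 on 3L. Both intervals contain the 28.2% of all protein-coding genes with a neighbour that had a peak, a share not counted by arm. The Wilson intervals by chromosome cover counting error only, and differences between chromosome arms were not tested.

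Other genes of mitochondrial gene expression were counted in the same way. This list held 35 genes, 15 of them with symbols of mitochondrial aminoacyl-tRNA synthetases and 20 of the ribosome proteins tko and bonsai and of translation, transcription or RNA factors, and 3 further names matched no gene. An IDR peak lay at 5 of the 35, or 14.3% (6.26 to 29.4%), beside 17.0% of all protein-coding genes, which the interval contains. Without replicate 2 or without replicate 3, it lay at 3. The strongest was at PNPase, the exonuclease polynucleotide phosphorylase, at IDR rank 7 with signals of 770, 623 and 879 (758 ± 129), a mean within the range of the replicates at mRpS23. The others were weaker, with signals of 80.2 ± 22.1 at mTerf5, 50.95 ± 15.3 at ProRS-m, 48.8 ± 9.75 at CysRS-m and 39.6 ± 25.01 at ArgRS-m. The mean signals of these 4 lay in the range of the 10 weaker mitochondrial ribosomal protein genes or, at mTerf5, just above it. No call lay at tko, and bonsai had a call in replicate 1 only. Genes of the cytoplasmic ribosome, named RpL or RpS, had an IDR peak in 56 of 92 cases, or 60.9% (50.7 to 70.2%), beside the same 17.0%. Fewer of them than of the mitochondrial ribosomal protein genes, 41.3%, had a head-to-head neighbour. The share of the cytoplasmic genes with a strong call was 44.6%, 55.4% and 71.7% in replicates 1, 2 and 3. Over all protein-coding genes it was 17.3%, 17.3% and 18.3%. The share of the mitochondrial ribosomal protein genes with an IDR peak was lower, and the 2 Wilson intervals do not overlap.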

How the data were processed

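Per the labels, 3 biological replicates of chromatin sheared to 200 to 800 bp were profiled by anti-GFP ChIP-seq. The authors deposited peak lists on dm3 and dm6, and those on dm6 were used. Each interval carries a signal value from the authors' caller, used as deposited, and a q-value on the −log10 scale deposited beside it, which was not used for results. Not given in the sources used here are the caller, the aligner, the control correction and the IDR cut-off. The depth of the libraries is unknown, so no read-based error could be given, and Wilson intervals cover the counting of genes only.

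Starts came from Ensembl release 115 without transposable elements (18277 genes) and sequence from the Release 6 genome of RefSeq, with 1-based coordinates. Python 3.11.15, NumPy 2.4.6, SciPy 1.17.1 and matplotlib 3.10.9 were used, and peak assignment was tested on simulated positions. With 1 group there was no test between conditions. The choice of this gene set for description, the other lists and the words were made with earlier results of these data known. Every member is named in its class, and all 18 with an IDR peak are given with every replicate. The neighbour of 1 member is not reported here. Alternatives changed the start window, start definition, peak strength, neighbour distance, promoter window and replicates.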

Additional observations from a re-analysis of the deposited data

How the results depend on the processing

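When a summit was counted only for the gene with the nearest start, 5 mitochondrial ribosomal protein genes had an IDR peak instead of 18 (6.85%, beside 13.2% of all protein-coding genes), with 4 instead of 17 among those with a head-to-head neighbour, 2 instead of 10 of the large and 3 instead of 8 of the small subunit, and 3 instead of 5 of the other mitochondrial genes. Mean strong calls per replicate fell to 7.67, against 20.7, and calls of any rank to 15.3, against 35. With the stronger 3234 IDR peaks, 12 genes instead of 18 had a peak, of which 11 had a neighbour and 5 were small subunit genes. Of the other mitochondrial genes, 2 had one. With as many strongest calls per replicate the mean was 11. With gaps up to 1000 bp, 0 genes without a neighbour had a peak. The 300 bp gap limit, chosen after seeing the data, gave 9 of 20 and 8 of 33 instead of 14 of 31 and 3 of 22 (45% and 24.2%, beside 32.8% and 26.0% of all protein-coding genes). Words in promoters reaching from 500 bp before to 100 bp after the start were found in 14 instead of 8 genes for motif 1 (19.2%, beside 9.80% of all promoters), 10 instead of 5 for the E-box (13.7%, beside 7.51%) and 3 instead of 1 for GAGA (4.11%, beside 8.52%). Beside promoters with a neighbour only, the share of other genes was 16.7% instead of 9.36% for the DRE, 13.8% instead of 7.69% for motif 1, 5% instead of 4.20% for the E-box and 3.54% instead of 5.86% for GAGA. Without each replicate in turn, 16 to 18 genes had a supported IDR peak, the 5 other mitochondrial genes became 3 to 4, and the median signal of the genes with a peak was 65.3 to 84.4, against 72.0. The cause of these changes was not tested beyond what each setting removes. Counts in this paragraph without a share beside them were not set against all protein-coding genes at the same setting. They are therefore not read as a result about this set. Of the alternatives, 66 left a result within its limits and 24 moved it. Ranks as percent of a list were not run as an alternative to signal, and ranks are given beside it. What read depth limits is unknown.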
